A study of Mus musculus with 19 samples.

Results

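Distal sites bound by both Bcl11b and GATA3 in mouse Th2 cells were collected from 3 deposited peak lists, one for each antibody and one for input chromatin. A site was taken from the Bcl11b list when the peak overlapped no input peak by 1 bp or more, overlapped at least 1 GATA3 peak that was itself free of input peaks, and lay more than 1000 bp from the start of the closest gene. In all, 5492 of the 17459 Bcl11b peaks met this rule, and 5785 of the 28612 GATA3 peaks overlapped them. The sites were chosen by the measured peak calls of both factors and of input and by the distance to the closest start, so what follows on their binding is a description without a test. There was 1 library per antibody, so no peak has a replicate.

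GATA3 is the zinc finger factor that drives naive CD4 T cells towards the Th2 fate, in which they secrete IL-4, IL-5 and IL-13, and it recognises the short DNA word GATA with its flanking bases. Bcl11b, also a zinc finger protein, commits thymocyte precursors to the T cell lineage and keeps up the identity of mature T cells. Regulatory DNA far from a gene start can act as an enhancer or a silencer, and the Th2 cytokine genes are a textbook case in which such elements lie between genes and inside a neighbouring gene, Rad50.

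The chromatin came from wild-type Th2 cells of the late culture stage. The RNA libraries fall into a Bcl11b experiment and a Gata3 experiment, each with early WT, early KO, late WT and late KO groups of 2 libraries. In the Bcl11b experiment, naive CD4 cells of Bcl11b fl/fl-CreERT2 mice were cultured under Th2 conditions for 4 days with 4-OHT (early KO) or without it (early WT). For the late stage, cells spent 4 days in Th2 conditions and 1 day of rest with IL-2, and then 4 more days in Th2 conditions with 4-OHT (late KO) or without it (late WT). WT and KO cells of that experiment therefore carry the same floxed and CreERT2 alleles, and deletion and drug cannot be told apart. For the Gata3 experiment the sources used here name early and late WT and KO but not the mice, alleles or culture. Nor do the labels say whether the libraries of a group came from separate cultures or animals. The p-values therefore refer to the spread between these libraries only, which may be technical.

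Few bound sites could be shown as sequence, because only 300-base windows around RefSeq gene starts were at hand. Of these windows, 99 lay wholly inside 83 of the shared distal peaks, at starts other than the one the peak list gives as closest or at the edge of a wide peak, and 26 windows in 24 peaks held the summits of both factors. The 5 of these with the most GATA3 reads are printed, followed by the window at the start of Gata3 itself, which held neither summit. Every window lies at an annotated gene start, so the word shares below may not hold for the other shared distal sites. Sequences are from RefSeq for GRCm38.p6, run 5′ to 3′ on the strand of the named gene, with GATA words in capitals. A GATA word is AGATAA or its close variant AGATAG, or else the word TGATAA or its close variant TGATAG, on either strand.

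Window at Gm38734, chr5:143132875-143133174, plus strand: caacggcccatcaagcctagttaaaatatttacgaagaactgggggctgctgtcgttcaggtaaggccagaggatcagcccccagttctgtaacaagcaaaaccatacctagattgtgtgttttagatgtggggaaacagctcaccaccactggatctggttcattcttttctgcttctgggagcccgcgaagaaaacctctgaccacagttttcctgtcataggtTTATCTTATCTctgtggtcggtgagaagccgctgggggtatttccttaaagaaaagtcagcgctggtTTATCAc

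Window at Gm46298, chr11:108910910-108911209, minus strand: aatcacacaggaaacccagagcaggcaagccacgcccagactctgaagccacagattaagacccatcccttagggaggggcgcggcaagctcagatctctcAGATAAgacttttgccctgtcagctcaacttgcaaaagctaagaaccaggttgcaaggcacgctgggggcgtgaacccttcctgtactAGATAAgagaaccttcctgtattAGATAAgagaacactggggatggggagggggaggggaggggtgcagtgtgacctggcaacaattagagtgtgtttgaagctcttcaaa

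Window at Gm33701, chr9:119743966-119744265, plus strand: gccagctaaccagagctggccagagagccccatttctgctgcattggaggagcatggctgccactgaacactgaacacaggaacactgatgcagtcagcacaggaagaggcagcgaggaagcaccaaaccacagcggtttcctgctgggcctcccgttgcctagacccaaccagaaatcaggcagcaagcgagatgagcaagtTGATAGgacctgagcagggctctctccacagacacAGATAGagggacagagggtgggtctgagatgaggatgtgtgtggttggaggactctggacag

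Window at Cstdc3, chr16:36307770-36308069, plus strand: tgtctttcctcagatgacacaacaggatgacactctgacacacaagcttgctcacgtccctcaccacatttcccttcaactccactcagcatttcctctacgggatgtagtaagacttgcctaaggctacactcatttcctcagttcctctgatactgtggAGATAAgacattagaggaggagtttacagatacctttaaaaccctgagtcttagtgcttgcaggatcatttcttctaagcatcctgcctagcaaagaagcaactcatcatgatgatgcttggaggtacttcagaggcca

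Window at Gm41331, chr15:60141576-60141875, plus strand: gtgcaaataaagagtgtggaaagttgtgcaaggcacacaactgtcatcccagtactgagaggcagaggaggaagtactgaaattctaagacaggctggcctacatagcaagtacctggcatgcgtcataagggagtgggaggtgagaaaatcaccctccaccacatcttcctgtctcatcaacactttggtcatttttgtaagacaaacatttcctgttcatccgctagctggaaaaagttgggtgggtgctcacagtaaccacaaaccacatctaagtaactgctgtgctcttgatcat

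Window at Gata3, chr2:9878551-9878850, minus strand: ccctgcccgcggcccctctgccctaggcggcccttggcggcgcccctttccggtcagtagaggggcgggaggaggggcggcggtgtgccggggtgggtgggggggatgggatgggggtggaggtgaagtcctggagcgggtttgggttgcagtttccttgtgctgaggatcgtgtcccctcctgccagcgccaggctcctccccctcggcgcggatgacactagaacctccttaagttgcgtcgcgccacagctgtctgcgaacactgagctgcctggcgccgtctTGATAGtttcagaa

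In the Gm38734 window, whose peak has Rnf216 as its closest gene, the Bcl11b summit falls at base 158 and the GATA3 summit at base 203, counted from 1 at the 5′ end. It holds 3 GATA words, the nearest with its centre 26.5 bp from the GATA3 summit, in a peak with 47 Bcl11b reads and 124 GATA3 reads. The Gm46298 window, near the Wnt feedback gene Axin2, also holds 3 words, and the first has its centre 6.50 bp from the GATA3 summit. That peak has 124 GATA3 reads as well but only 21 Bcl11b reads. The Gm33701 and Cstdc3 windows hold 2 words and 1 word. The Gm41331 window holds none of the 4 words, although both summits lie in it and its peak has 49 GATA3 reads and 31 Bcl11b reads.

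GATA words occurred in 65.4% of the 26 windows with both summits and in 42.4% of all 99 windows inside the shared distal peaks. The share was 24.7% of 93 windows in distal Bcl11b peaks without GATA3, 22.4% of 1000 windows in promoter peaks of both factors, and 29.8% of all 32815 windows. It was highest, 76.5%, in the 51 windows inside distal GATA3 peaks without Bcl11b. Windows in the shared distal peaks that held the GATA3 summit had a GATA word in 61.8% of 34 cases, and those without it in 32.3% of 65.

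Words of other factors were counted on both strands of the same windows. RUNX words (TGTGGT or its close variant TGCGGT) occurred in 53.8% of the windows with both summits against 22.4% of all windows, ETS words (AGGAAG or its close variant CGGAAG) in 69.2% against 46.5%, and AP-1 words (TGANTCA) in 26.9% against 7.81%. Over all 99 windows inside shared distal sites the shares were 29.3% for RUNX, 56.6% for ETS and 15.2% for AP-1, and in the 51 windows inside distal GATA3 peaks without Bcl11b they were 33.3%, 51.0% and 13.7%. The word TGACCA, which BCL11 family proteins are known to bind, was in 30.8% of the windows with both summits, in 20.2% inside all shared distal sites, in 5.88% inside distal GATA3 peaks without Bcl11b and in 13.6% of all windows. GC boxes (GGGCGG), common at housekeeping promoters, were in 11.5%, 27.3%, 15.7% and 35.6% in the same order. For STAT words (TTCNNNGAA, or the same with 1 more base in the middle) the shares were close, 15.4% and 14.6%, and likewise for E-boxes (CANCTG), 53.8% and 51.4%. The TCF word TTCAAAG occurred in 3.85% against 5.14%. In the 93 windows inside distal Bcl11b peaks without GATA3, RUNX words were in 22.6%, ETS words in 54.8% and AP-1 words in 8.60%. TGACCA was in 10.8% of them, in 12.2% inside promoter Bcl11b peaks without GATA3 and in 13.6% inside shared promoter peaks. These TGACCA shares were thus no higher than in all windows. The median GC content was 47.3% in the windows with both summits, 52.0% inside all shared distal sites and 52.7% in all windows. It was 60.7% inside distal Bcl11b peaks without GATA3, 61.7% inside shared promoter peaks and 47.7% inside distal GATA3 peaks without Bcl11b. GATA words are rich in A and T, and the part of GC content in the word shares was not tested. With 26 windows each one weighs several percent, and a match is a run of letters rather than a shown binding site.

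Of the 10939 distal Bcl11b peaks that overlapped no input peak, 50.2% also carried a GATA3 peak. At promoters, defined as within 1000 bp of a start, the share was 26.6% of 4323 peaks. The shared distal peaks had a median width of 822 bp, ranging from 304 to 7860 bp, and a median of 30 Bcl11b reads, ranging from 11 to 530. The peak caller's fold enrichment, which is the authors' deposited value, had a median of 3.17 for Bcl11b and of 3.92 for the overlapping GATA3 peak. Distal Bcl11b peaks without GATA3 were narrower and lower, with a median width of 621 bp, 18 reads and a fold of 3.01. GATA3 peaks on the shared sites had a median of 25 reads and a fold of 3.76, against 12 reads and 3.08 at the 18802 distal GATA3 peaks without Bcl11b.

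Sharing followed read number more than fold. With distal Bcl11b peaks in 4 equal groups from the fewest to the most Bcl11b reads, 25.2%, 46.8%, 58.5% and 70.3% were shared. In 4 groups from the lowest to the highest Bcl11b fold, the shares were 47.6%, 46.5%, 48.2% and 58.5%. In 4 groups of distal GATA3 peaks by GATA3 reads, they were 8.77%, 14.1%, 24.1% and 48.2%. A site with few reads can be missed by a peak caller in either list, and the part of this in the shares was not tested. Across the shared peaks the Bcl11b and GATA3 reads had a Spearman correlation of 0.35 and the folds of 0.26. Both lists share the mappability and the openness of each site.

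**Figure D1:**
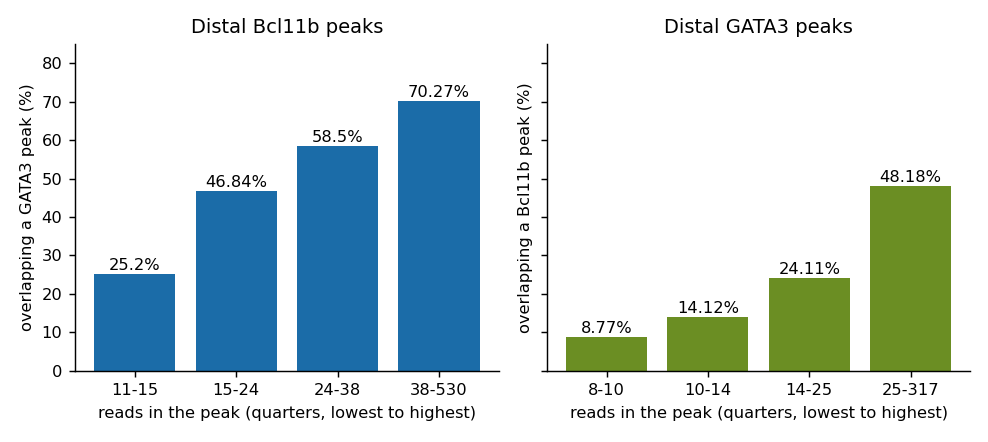
Share of distal Bcl11b peaks that overlap a GATA3 peak (in percent) in 4 equal groups by Bcl11b reads, and share of distal GATA3 peaks that overlap a Bcl11b peak (in percent) in 4 equal groups by GATA3 reads. Bars rise from 25.2% to 70.3% over Bcl11b reads and from 8.77% to 48.2% over GATA3 reads.

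The summits of the factors lay close together at the shared distal sites. The median distance between the Bcl11b and GATA3 summits was 71 bp, and it was at most 50 bp at 39.5% and at most 100 bp at 60.6% of sites. At promoter peaks of both factors the median distance was 216 bp and 33.0% were within 100 bp. Promoter peaks were also wider, with a median of 1213.5 bp.

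**Figure D2:**
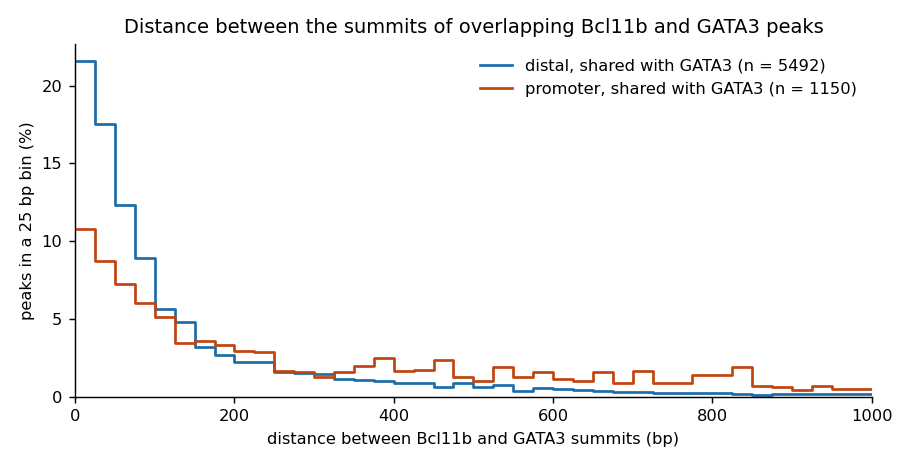
Distance in bp between the Bcl11b summit and the summit of the overlapping GATA3 peak, as percent of peaks in each 25 bp bin, for 5492 shared distal peaks and 1150 shared promoter peaks. The distal peaks pile up at short distances, with a median of 71 bp, and the promoter peaks spread out, with a median of 216 bp.

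Most shared distal sites were many kilobases from a gene start. The median distance was 22688 bp, 11.8% lay over 100 kb away, and the farthest was at 1241843 bp. The centre of 53.3% fell inside a protein-coding gene and that of 36.8% in no gene. They lay near one another more often than distal Bcl11b peaks without GATA3: 30.2% had another of their kind within 10 kb, against 18.6%. Sites just inside the distance limit lay at 1002, 1008 and 1009 bp (closest genes Gm5535, 4930500F04Rik and Zswim6), and the nearest ones left out were at 999, 1000 and 1000 bp (Tmem253, Hivep2 and Rph3al). For 47 sites the overlap with the GATA3 peak was under 50 bp.

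The highest Bcl11b enrichment among the shared sites was at Rgs2, which encodes an inhibitor of G protein signalling. This peak, chr1:144006181-144007235 (mm10), is 2560 bp from the start and has 116 Bcl11b reads at a fold of 20.17 and 162 GATA3 reads at a fold of 30.69. The next in order had Mir151 (20.14), Pum2 (19.00), Psapl1 (18.86), Tab2 (18.45), Coa5 (17.61), Rdm1 (15.11) and Clasp2 (14.88) as closest genes, with the Bcl11b fold in brackets. The highest GATA3 fold, 42.0 from 288 reads, was near Aff4, with 67 Bcl11b reads at a fold of 5.62. Prdm1, which encodes the terminal differentiation factor Blimp-1, had a peak 150533 bp from its start (chr10:44608852-44609708) that stood high in both lists, with a Bcl11b fold of 12.68 and a GATA3 fold of 38.39. High enrichment for one factor did not always come with the other: the Pum2 and Rdm1 sites had GATA3 folds of 2.33 and 1.65.

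The sites had 3274 different closest genes. Of these, 2204 had 1 site, 824 had 2 or 3, and 246 had 4 or more. The genes closest to the most sites were the unnamed gene Gm17746 and Sla, an adaptor that dampens T cell receptor signalling, with 18 each. Maf, a factor that activates Il4 and Il10, had 15. Gata3, Rbpj (the DNA-binding factor of Notch signalling), Prdm1 and Inpp4b (a lipid phosphatase) had 13 each, and Runx1 had 12. Many of these sites were far away: none of those of Maf or Inpp4b lay within 50 kb of the start. Of the 18 sites each, 2 of Gm17746 and 17 of Sla did. No shared distal site had Ccr8, Tbx21, Penk or Runx3 as its closest gene. The closest gene is a matter of distance alone and was not shown to be a target.

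The Th2 cytokine genes lie in a row on chromosome 11, and 9 shared distal sites fell there. Il13 had 5. The one nearest its start, chr11:53635870-53636703, lies 1.58 kb upstream and has 38 Bcl11b reads (fold 4.27) and 129 GATA3 reads (fold 25.38), with the summits 2 bp apart. A further 3 Il13 sites lie within Rad50, at 16.7, 20.4 and 28.4 kb upstream of Il13. The middle one, chr11:53654414-53655694, has 87 Bcl11b reads and 148 GATA3 reads with summits 32 bp apart. The remaining site, chr11:53626012-53628580, is between Il13 and Il4 and has 127 Bcl11b reads but a fold of only 2.52.

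Il4 had a site inside the gene, 2.06 kb downstream of its start (69 and 22 reads for Bcl11b and GATA3), and another past its end, 12.1 kb downstream of the start (chr11:53604340-53606175, 110 and 141 reads). Il5, the eosinophil growth factor, had sites 6.26 kb and 11.8 kb downstream of its start, with 29 and 31 Bcl11b reads. Folds over the cytokine genes ran from 1.87 to 4.27 for Bcl11b and from 1.37 to 25.38 for GATA3, so reads alone would rank these sites differently from enrichment.

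Other genes of Th2 cells had arrays of sites. Il10, which encodes an anti-inflammatory cytokine, had 8, from 29.1 kb upstream to 9.50 kb downstream of its start, the highest at chr1:131025271-131027155 with 124 Bcl11b reads (fold 8.52) and 52 GATA3 reads (fold 2.76). Il1rl1, the receptor for IL-33, had 6, all upstream of the start used here, at 4.22 to 46.9 kb. The nearest 2, chr1:40418299-40418906 and chr1:40425015-40425682, lie inside the gene's interval, which begins further upstream. The first of them had 28 Bcl11b reads and 65 GATA3 reads with a GATA3 fold of 14.20. Ctla4, an inhibitory receptor, had 8, among them chr1:60898753-60900237, with 101 and 94 reads.

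Gata3 itself had 13. One of them, chr2:9873537-9880314, is 6778 bp wide, contains the start of Gata3 and has 350 Bcl11b reads. It counts as distal because its centre is 1674 bp from that start. Its printed window held neither summit. Another 2 lie within the gene at 11.0 and 17.4 kb, and the other 10 lie 160.4 to 314 kb downstream. Bcl11b had 2 (chr12:107992429-107993715 with 53 and 25 reads, and chr12:107998470-107999279 with 37 and 11 reads). Ifng, the hallmark cytokine of Th1 cells, had 1, chr10:118477186-118477907, with 20 and 24 reads.

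**Figure D3:**
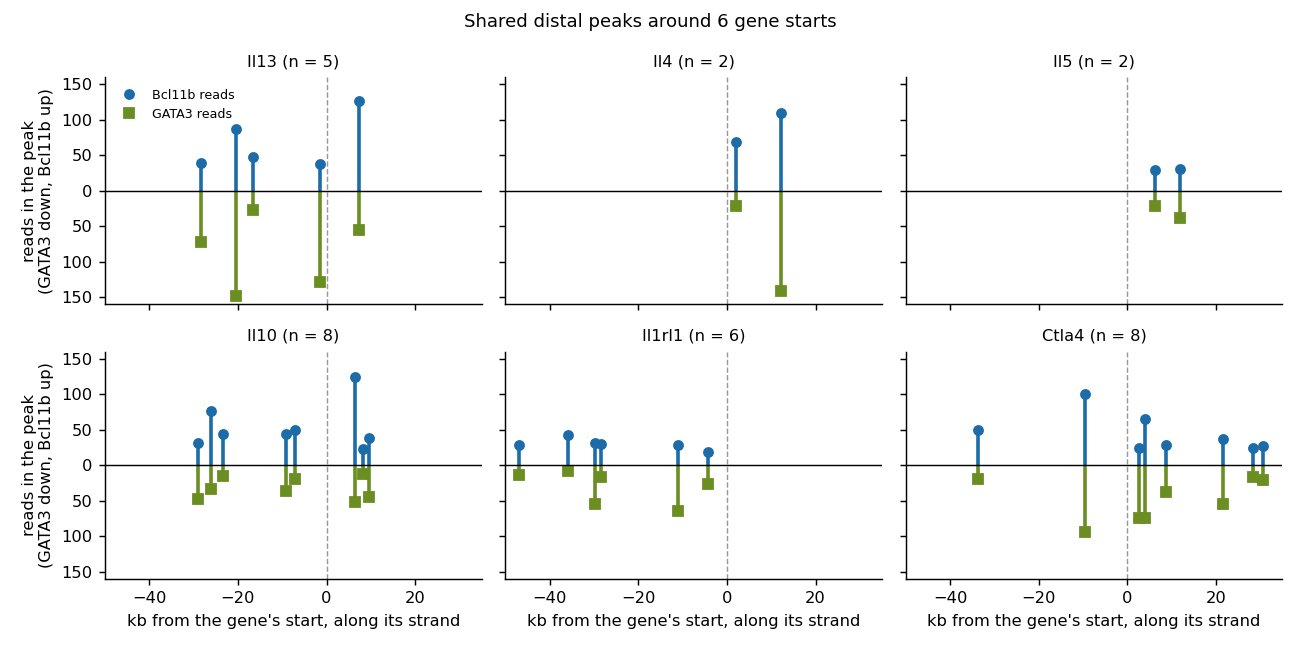
Shared distal sites around named genes, by distance of the peak centre from the gene start in kb along its strand (negative upstream), with the Bcl11b reads of each peak drawn upwards and the reads of its GATA3 partner downwards. The 6 Il1rl1 sites all lie upstream of the start used, the 2 Il4 and 2 Il5 sites downstream, and Il13, Il10 and Ctla4 have sites on both sides.

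The RNA libraries held 4687552 to 14577958 reads in genes. In the Bcl11b experiment both early WT libraries differed from the rest, with 20.7% and 16.9% of the implied library total in genes, against 40.7% to 60.3% elsewhere, and with 3.78 and 4.87 reads per kb over sensory receptor transcripts that T cells do not express, against at most 0.507. Every value of the early Bcl11b comparison rests on them. The summed level of 5 T cell markers was 274 to 339 RPKM in early WT of that experiment, 830.1 to 869 in its early KO, with 3 of the 5 called higher, and at least 679 in every other group. Summed Th2 markers reached only 41.3 to 50.1 RPKM in those early WT libraries, against 983 to 1244 in the other WT groups. RPKM are scaled to the implied library total, so the low share in genes lowers every RPKM of those early WT libraries. The part of this scaling in the marker sums was not tested. In the bulk RNA, fewer cells of a type and less RNA per cell cannot be told apart. Bcl11b had 126 and 128 TMM-scaled CPM (reads scaled to the library's size) in early WT and 66.5 and 54.2 in early KO (log2 change -1.08 ± 0.28 SE, adjusted p = 0.0232, edgeR quasi-likelihood test with Benjamini-Hochberg adjustment, as for every adjusted p below). That call was lost without early WT replicate 1 or early KO replicate 2 (adjusted p up to 0.0820). In the late stage it had 140 and 181 CPM in WT and 75.6 and 137 in KO, and the change of -0.59 ± 0.28 did not pass (adjusted p = 0.421). The counts are over whole transcripts, so they show transcript level and not the deleted allele.

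Of the 3274 closest genes, 2894 are in the RNA tables, and 2075 passed the filter on low values in the Bcl11b experiment and 2024 in the other one. They were expressed at higher levels than genes at large, with a median log2 CPM of 6.02 against 5.24 in the former and of 5.6 against 5.27 in the latter. Precision grows with level, which bears on any count of called genes. Level also rose with the number of sites (1, 2 or 3, and 4 or more). The median log2 CPM was 5.71, 6.41 and 7.42 in the Bcl11b experiment and 5.37, 5.91 and 6.61 in the Gata3 experiment.

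The early Gata3 KO cultures showed the most changes, at 47.2% of the tested genes with a site. There, 376 of the 2024 rose (18.6%, against 14.0% of all genes tested) and 580 fell (28.7%, against 16.8%). Their median log2 change was -0.07, and -0.003 over all genes. The share that fell was 22.9% for genes with 1 site, 37.0% with 2 or 3, and 43.7% (86 of 197) with 4 or more, where the median change was -0.32. Among genes without a shared distal site, the share that fell was 16.5% for those with a distal GATA3 peak lacking Bcl11b. It was 16.4% for those with a distal Bcl11b peak lacking GATA3 and 14.5% for those with a shared promoter peak. A gene can be in more than 1 of these classes. For genes with no peak of either factor it was 12.7%. The share that rose did not follow the number of sites in this way, at 18.2%, 20.5% and 15.7%. Level and the number of GATA3 peaks without Bcl11b per gene were not matched in these shares, and their part was not tested. In the highest of 4 equal groups of genes by expression, 35.7% of genes with a shared distal site fell and 16.2% of the others.

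In late Gata3 KO, 286 rose (14.1%, against 8.44% of all genes) and 267 fell (13.2%, against 5.59%). With 4 or more sites, 17.3% rose and 21.3% fell, and with no peak of either factor 6.31% and 2.82%. Genes with distal GATA3 peaks lacking Bcl11b and no shared distal site had 9.30% and 5.39%. In the highest group by expression, 32.2% of genes with a shared site changed and 12.7% of the others. Without late WT replicate 1 or 2 the number that rose was 182 or 164, and without late KO replicate 2 the number that fell was 170.

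Fewer genes were called in the late Bcl11b KO cultures, in the fit that the early and late libraries share. There, 65 of the 2075 rose (3.13%, against 1.69% of all genes) and 14 fell (0.675%, near the 0.524% of all genes). These counts are fragile: leaving out late WT replicate 1 or 2 or late KO replicate 1 or 2 gave 4, 9, 5 and 9 that rose and 3, 4, 3 and 2 that fell. A fit without both early WT libraries, added after the data were seen, gave 128 and 27 (3.35% and 1.20% of all genes). A fit of the 4 late libraries alone gave 305 and 128 (8.72% and 5.83% of all genes). More genes were called higher in it than in a fit of the 4 early libraries alone. In the fit of all libraries, the share that rose was 2.56%, 4.73% and 2.55% for 1, 2 or 3, and 4 or more sites, and 1.34% without a peak. In the highest group by expression, 3.95% of genes with a shared site rose and 1.16% fell, against 1.83% and 1.78% of the others. In counts simulated for this comparison the test found 11% of the genes given a 2-fold change and 91% of those given a 4-fold change, against 91% and 100% for late Gata3 KO. Every simulated gene of an experiment was given the same spread, estimated from all 8 libraries. In the Bcl11b experiment these include the early WT libraries that differed from the rest, and the late libraries alone were not simulated.

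In early Bcl11b KO, 343 rose (16.5%, against 11.0% of all genes) and 223 fell (10.7%, against 10.1%). The share that fell was near that of all genes. The share that rose was 14.2%, 20.9% and 19.9% for 1, 2 or 3, and 4 or more sites, and 9.14% without a peak. In the highest group by expression, 23.8% of genes with a shared site rose and 10.6% fell, against 14.6% and 9.63% of the others. Without early KO replicate 1, 228 rose. The scaling matters here: limma on log2(RPKM + 1), which takes the authors' library totals, moved the median of all genes to 0.862 and called 1356 higher and 61 lower, and directions in this comparison are relative to TMM scaling. The part of the early WT libraries in these counts was not tested.

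**Figure D4:**
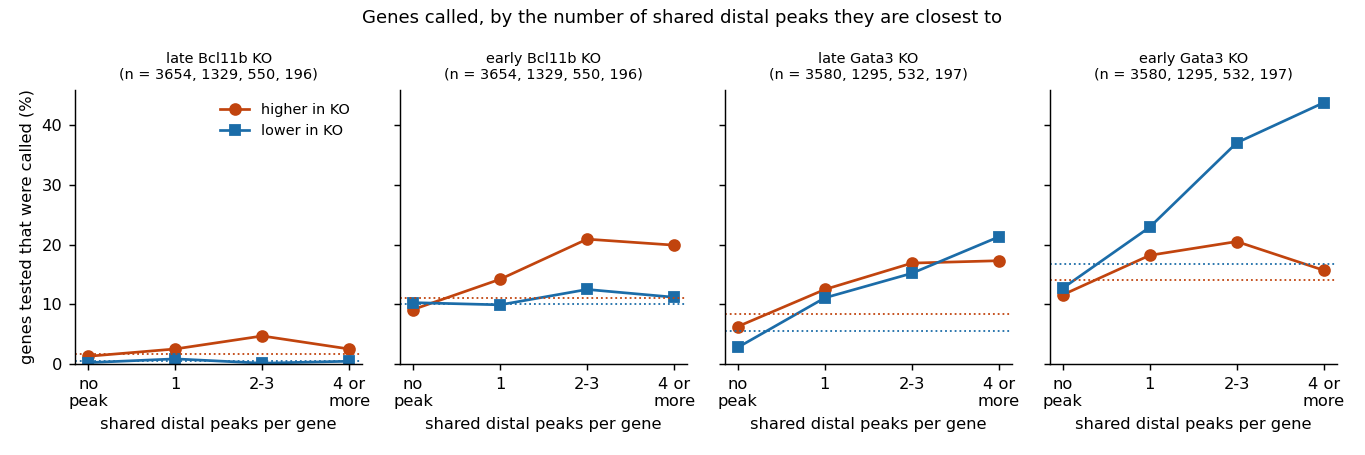
Percent of tested genes called higher (circles) and lower (squares) in each KO comparison, for genes with no kept peak of either factor and with 1, 2 or 3, and 4 or more shared distal sites; dotted lines give the percent over all genes tested. In early Gata3 KO the percent called lower climbs from 12.7% with no peak to 43.7% with 4 or more shared sites.

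The Th2 cytokine genes with shared sites were lower in Gata3 KO. Of 6 such genes (Il4, Il5, Il13, Il10, Il24 and Lif, with 28 sites), 6 fell in early Gata3 KO and 4 in late Gata3 KO, with median log2 changes of -5.21 and -1.87. Of the 6 tested Th2 cytokine genes without a shared distal site, 4 fell and 2 rose early, and 2 fell and 1 rose late. Il13 had 214 and 210 CPM in early WT and 2.38 and 1.03 in early KO (-6.93 ± 0.23, adjusted p = 1.83e-07). In the late stage it had 180 and 206 CPM in WT and 5.09 and 5.88 in KO (-5.11 ± 0.20, adjusted p = 2.04e-06). The groups did not come near each other in either stage. Il5 had 436 and 289 CPM in late WT and 2.94 and 1.93 in late KO (-7.29 ± 0.44, adjusted p = 1.37e-05), and in the early stage it changed by -6.72 ± 0.41.

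Il4 behaved differently between the stages. In early Gata3 KO it was at 3.14 and 2.17 CPM against 200 and 232 in WT (-6.33 ± 0.32, adjusted p = 7.5e-07). In late KO it was at 96.9 and 155 CPM against 180 and 252, a change of -0.77 ± 0.23 that did not pass (adjusted p = 0.0509). The difference of the effects between stages was 5.56 on the log2 scale (adjusted p = 5.7e-05). Il10 had 1427 and 1760 CPM in early WT and 157 and 118 in early KO (-3.54 ± 0.19), and 1364 and 1635 against 581 and 473 late (-1.51 ± 0.18), which also differed between stages, by 2.03 (adjusted p = 0.00082).

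In early Bcl11b KO 4 of these 6 genes rose (median 1.496), from low levels in early WT. Of the 7 tested Th2 cytokine genes without a shared distal site 3 rose early, and late 2 of those 7 rose against 0 of the 6 with a site. Il13 had 7.54 and 5.87 CPM in early WT and 182 and 119 in early KO (4.48 ± 0.29, adjusted p = 2.12e-05). Il10 had 117 and 125 CPM against 334 and 347 (1.49 ± 0.16, adjusted p = 0.000303). Il5 was at 0.419 and 9.43 CPM against 29.4 and 57.0 (3.13 ± 0.65, adjusted p = 0.00771). Il24 rose as well, from 145 and 170 CPM to 467 and 428. Over 8 mast cell and basophil markers, cell types that also make IL-13, the summed level was 0.719 to 1.37 RPKM in early WT and 12.3 to 12.6 in early KO, with 6 of the 8 (Mcpt8, Fcer1a, Ms4a2, Kit, Prss34 and Gata2) under 0.1 in early KO. The 1 marker tested, the mast cell protease gene Cpa3, was called higher, from 0.143 and 0.397 RPKM in early WT to 12.3 and 12.2 in early KO. B cell markers summed to 10.3 to 14.8 RPKM in early WT and 26.6 to 35.1 in early KO over 7 markers, with 0 of 3 tested called. These sums are in RPKM, which the low share of reads in genes lowers in early WT. The part of mast cells, basophils and B cells in the cytokine rises was not tested. Il4 had 39.2 and 26.2 CPM against 32.0 and 47.1, which overlap.

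In late Bcl11b KO none of the 6 passed (median 0.53). Il4 had 62.2 and 51.5 CPM in WT and 141 and 111 in KO (1.15 ± 0.29, adjusted p = 0.0767). Il5 had 370 and 321 against 1280 and 987 (1.72 ± 0.50, adjusted p = 0.122), and Il13 1589 and 2191 against 3208 and 3115 (0.74 ± 0.22, adjusted p = 0.128). Both KO libraries lay above both WT libraries for all 3. In the fit of the 4 late libraries alone their adjusted p-values were 0.000277, 2.0e-06 and 0.00433. The Bcl11b KO effect on Il13 differed between stages by -3.74 (late minus early, adjusted p = 0.00169) and that on Il10 by -1.17 (adjusted p = 0.0231).

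**Figure D5:**
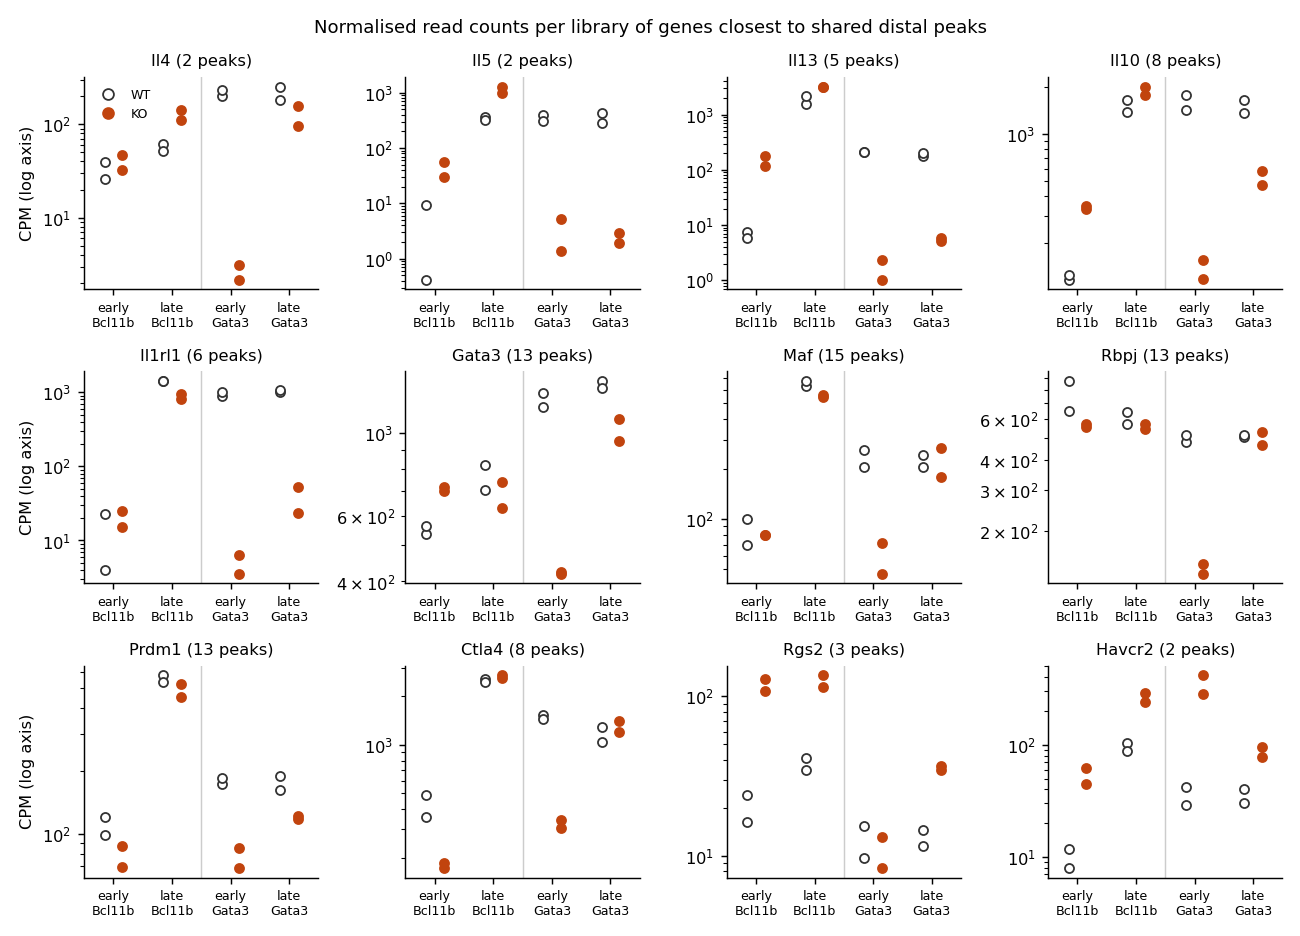
Level of named genes in each library, in CPM on a log axis, with 1 open circle per WT library and 1 filled circle per KO library; CPM were scaled within each experiment. Il13 and Il1rl1 sit far lower in both Gata3 KO groups than in WT, and the late Bcl11b KO libraries lie above late WT for Il4, Il5 and Il13.

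Of 10 Th2-associated receptor genes with 37 sites, 8 fell and 2 rose in early Gata3 KO, and 4 fell and 2 rose in late Gata3 KO (medians -1.79 and -0.45). Of the 2 tested genes of the list without a site, 1 fell and 0 rose in each stage. Il1rl1 had 887 and 1008 CPM in early WT and 6.28 and 3.55 in early KO (-7.58 ± 0.40, adjusted p = 8.71e-07), and 994 and 1080 against 53.4 and 23.7 late (-4.79 ± 0.34, adjusted p = 2.55e-05). The KO effect on Il1rl1 was smaller late than early by 2.79 (adjusted p = 0.00487). Il2ra, the high-affinity subunit of the IL-2 receptor, with 7 sites, had 3289 and 3332 CPM in early WT and 749 and 688 in early KO (-2.20 ± 0.11), and fell by 0.75 late. Il4ra, the IL-4 receptor chain, moved the other way, from 1003 and 763 CPM to 2099 and 1789 in late Gata3 KO (1.14 ± 0.17, adjusted p = 0.00197). In late Bcl11b KO, 1 of the 10 passed, Il1r2, a decoy receptor for IL-1, which rose from 81.4 and 88.9 CPM to 192 and 179 (1.13 ± 0.25, adjusted p = 0.046), a call lost whichever late library was left out.

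Transcription factor genes formed the longest list, with 52 genes, and had the most sites in total, 172 at 37 of them. Per listed gene they did not stand out: the naive and memory T cell list had 66 sites at 19 of 20 genes. In early Gata3 KO 19 of the 35 tested fell and 4 rose, in late Gata3 KO 9 fell and 2 rose, and in late Bcl11b KO none passed out of 36. Of the 13 listed genes without a site tested in the Gata3 experiment, 4 fell and 5 rose early, and 0 fell and 6 rose late. In late Bcl11b KO 1 of 11 without a site rose and 0 fell. Maf had 261 and 206 CPM in early WT and 46.7 and 71.3 in early Gata3 KO (-1.99 ± 0.24, adjusted p = 0.000168), but 242 and 206 against 267 and 178 late. Rbpj likewise had 478 and 514 CPM against 132 and 145 early (-1.84 ± 0.12), and 502 and 514 against 526 and 464 late, values that overlap. The effects differed between stages by 1.97 for Maf and 1.80 for Rbpj (adjusted p = 0.00449 and 0.000149). Prdm1 was at 173 and 186 CPM in early WT and 85.4 and 68.5 in early Gata3 KO (-1.22 ± 0.14, adjusted p = 8.54e-05), and the smaller late fall of 0.55 was lost when any of 3 late libraries was left out (late WT replicate 2, late KO replicate 1 or late KO replicate 2). Runx1, in spite of its 12 sites, did not pass in any of the 4 comparisons, with 106 and 117 CPM in early WT and 87.8 and 98.9 in early Gata3 KO. Pparg, a nuclear receptor of Th2 cells with 6 sites, fell by 5.96 early, from 131 and 189 CPM to 3.14 and 1.95.

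Gata3 transcript was at 1178 and 1280 CPM in early WT and 425 and 419 in early Gata3 KO (-1.54 ± 0.11, adjusted p = 5.8e-06). Late, it was at 1382 and 1327 CPM against 1090 and 954 (-0.41 ± 0.11, adjusted p = 0.0361), a call that was lost without late WT replicate 1, late WT replicate 2 or late KO replicate 2 (adjusted p up to 0.157). In the Bcl11b experiment Gata3 did not pass in either stage, at 705 and 821 CPM in late WT and 630 and 738 in late KO. Batf3, an AP-1 family factor with 2 sites, rose in late Gata3 KO from 5.23 and 3.86 CPM to 184 and 178 (5.31 ± 0.31, adjusted p = 1.02e-05) and in early KO by 3.98.

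Th1 and cytotoxic genes had few shared distal sites, 6 at 3 of 18 genes and 8 at 6 of 20. Most of those lists rose in early Gata3 KO without having a site: 13 of 15 tested Th1 genes and 12 of 12 tested cytotoxic genes without one. Ifng, with its 1 site, had 6.10 and 2.63 CPM in early WT and 931 and 991 in early Gata3 KO (7.79 ± 0.92, adjusted p = 0.00013). In late KO its libraries were at 7.05 and 84.5 CPM against 3.14 and 4.07 (3.74 ± 0.87, adjusted p = 0.0191), so 1 library holds most of the rise, and the call was lost without late WT replicate 1, late WT replicate 2 or late KO replicate 2. Fasl, the death receptor ligand, with 2 sites, rose from 3.80 and 2.76 CPM to 308 and 330 in early Gata3 KO. Gzmb, the protease granzyme B, with 1 site, fell in late Bcl11b KO from 3702 and 3808 CPM to 1475 and 1469 (-1.35 ± 0.15, adjusted p = 0.00184). In early Bcl11b KO it did not pass, at 601 and 695 CPM against 728 and 611, and the stages differed by -1.40 (adjusted p = 0.00953).

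Genes that restrain signalling had 52 sites at 14 of 22 listed genes. In late Gata3 KO 7 rose and 2 fell, and in early Gata3 KO 4 rose and 3 fell. Of the 7 tested genes of the list without a site, 3 rose and 1 fell late, and 3 rose and 2 fell early. Dusp10, a phosphatase of stress kinases, rose from 28.8 and 34.6 CPM to 171 and 156 in late Gata3 KO (2.37 ± 0.15, adjusted p = 1.41e-05), and Cblb, a ubiquitin ligase that limits T cell activation, from 35.3 and 38.8 to 138 and 145 (1.93 ± 0.13). In both the groups stood well apart. Rgs1, a regulator of G protein signalling with 11 sites, fell by 1.57 in early Gata3 KO and rose by 1.47 in early Bcl11b KO. Sla, with 18 sites, had 660 and 814 CPM in early WT and 370 and 483 in early Gata3 KO (-0.79 ± 0.16, adjusted p = 0.00407), and its late fall of 0.63 was lost without late WT replicate 2, late KO replicate 1 or late KO replicate 2.

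Among regulatory T cell and inhibitory receptor genes with sites, 6 of the 12 tested fell and 3 rose in early Gata3 KO. Of the 3 tested without a site, 3 fell. Ctla4 had 1536 and 1453 CPM in WT and 344 and 307 in early Gata3 KO (-2.20 ± 0.14), and 1040 and 1288 against 1407 and 1201 in the late stage. Lrrc32, which displays latent TGF-beta on the cell surface, rose from 19.8 and 10.4 CPM to 376 and 336 in early Gata3 KO (4.57 ± 0.26, adjusted p = 1.24e-06) and by 3.81 late. In early Bcl11b KO Ctla4 fell from 492 and 357 CPM to 172 and 186 and Lrrc32 from 151 and 153 to 31.4 and 46.1. Naive and memory T cell genes had 66 sites at 19 of 20 genes, and 11 of them fell and 4 rose in early Gata3 KO. The 1 gene without a site fell too. T cell receptor signalling genes had 89 sites at 18 of 30, with 6 lower and 4 higher in early Gata3 KO. Of the 12 tested without a site, 1 was lower and 8 were higher.

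Several genes with a shared distal site kept their call in late Bcl11b KO when any 1 late library was left out, and they are of varied function. C5ar1, the receptor for complement fragment C5a, with 2 sites, had 0 reads in both late WT libraries and 139 and 143 CPM in late KO, at least 1324-fold higher against a floor of 3 reads over the group. Macrophage and dendritic cell markers, which include cell types known to express C5ar1, summed to 4.43 to 6.68 RPKM in late WT and 10.2 to 11.3 in late KO over 8 markers, with Csf1r among those under 0.1 in late WT, and B cell markers to 1.75 to 2.01 and 6.85 to 8.87 over 7 markers. Of the markers tested, 0 of 3 and 2 of 3 were called higher, and their part in the result was not tested. Atp6v0d2, a subunit of the vacuolar proton pump, rose from 65.6 and 50.2 CPM to 424 and 281 (2.61 ± 0.25, adjusted p = 0.000821). Sytl2, a vesicle docking protein, with 3 sites, rose from 67.7 and 63.0 to 303 and 316 (2.24 ± 0.21, adjusted p = 0.000653). Myo6, an unconventional myosin with 1 site, fell from 514 and 499 to 150 and 156 (-1.73 ± 0.15, adjusted p = 0.000462). The calls of C5ar1, Atp6v0d2, Sytl2, Myo6 and Gzmb were kept when any 1 late library was left out. Ccr2, a chemokine receptor with 5 sites, fell by 1.26 (172 and 153 against 65.6 and 70.3 CPM, adjusted p = 0.0167), and that call was lost whichever late library was left out. Called changes larger than that of Ccr2 also included Col18a1 (2.89), Ccl17 (2.40), Arhgap23 (2.38), Furin (2.32) and Cyp2s1 (-2.68), on the log2 scale. Those of Ccl17, Arhgap23 and Furin were lost whichever late library was left out, and that of Col18a1 without late WT replicate 1 or either late KO library. That of Cyp2s1 was lost at least without late KO replicate 2.

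In early Bcl11b KO, besides Il13, the large rises included Tnfsf4, the OX40 ligand (0.628 and 2.93 CPM against 134 and 73.5, 5.86 ± 0.61), and Phlda1 (1.26 and 5.66 against 64.5 and 71.7, 4.30 ± 0.43). The large falls included the glucose transporter gene Slc2a3, with 3 sites (930 and 720 against 54.6 and 33.2, -4.23 ± 0.29), and Cyp2s1 (227 and 247 against 2.08 and 3.31, -6.46 ± 0.39). In early Gata3 KO, Tox2, with 2 sites, went from 13.4 and 28.3 CPM to 0 in both KO libraries, at least 125-fold lower against 3 reads over the group. Cyp11a1, the first enzyme of steroid synthesis, with 2 sites, went from 1366 and 1584 CPM to 11.3 and 5.84 (-7.42 ± 0.35). In late Gata3 KO the amino acid transporter gene Slc7a8 fell from 51.4 and 62.9 CPM to 1.17 and 0.912 (-5.81 ± 0.30), and the collagenase gene Mmp13 rose from 0.105 and 0.107 to 39.7 and 24.2 (8.03 ± 0.52). Macrophage and dendritic cell markers summed to 3.90 to 4.37 RPKM in late WT and 6.81 to 8.53 in late Gata3 KO, with 6 of the 8 (among them Csf1r, Lyz2, Itgam, Itgax and Flt3) under 0.1 in both groups. The 1 marker tested, Cd68, was called higher, from 4.20 and 3.46 RPKM to 8.01 and 6.40, and its part in these changes was not tested.

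The late KO comparisons have separate WT libraries. Of 1929 genes with a shared site that were tested in both experiments, 68 were called in late Bcl11b KO and 525 in late Gata3 KO. Of these, 18 were higher in both and 3 were lower in both (Myo6, Afg3l2 and Smc5). Another 7 rose in late Bcl11b KO and fell in late Gata3 KO (among them Cd55, Ctsh, Furin, Gem, Il1r2 and Sytl2), and 1 did the reverse (Aak1). The late Bcl11b calls of Afg3l2, Smc5, Furin, Il1r2 and Aak1 were lost whichever late library was left out, while those of Myo6 and Sytl2 were kept. The late Gata3 call of Smc5 was lost without late WT replicate 1 or late KO replicate 2. Over all 9986 genes tested in both, 63 were called in both and 46 in the same direction, out of 195 called in late Bcl11b KO and 1367 in late Gata3 KO.

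Rgs2, the gene with the highest Bcl11b fold, was one of the 18. It had 41.1 and 34.7 CPM in late WT and 136 and 114 in late Bcl11b KO (1.72 ± 0.26, adjusted p = 0.00954), and 11.4 and 14.5 against 34.3 and 36.6 in late Gata3 KO (1.46 ± 0.26, adjusted p = 0.00519). Havcr2, the inhibitory receptor TIM-3, with 2 sites, rose by 1.46 and 1.30. Myo6, the gene of the list that fell furthest in both, dropped to 34.8 and 20.4 CPM from 1394 and 993 in late Gata3 KO (-5.47 ± 0.36). The Bcl11b calls of Rgs2 and Havcr2 were lost whichever late library was left out.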

How the data were processed

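The RNA tables hold, per RefSeq transcript, the authors' deposited raw read counts and RPKM, and the transcript with the most reads over the 16 libraries stood for its gene. The peak lists hold the authors' deposited peak positions, read counts, fold (ratio of the tag level to its background), score (in the MACS column, 10 times the negative log10 of a p-value) and FDR in percent. Per the submitters' processing notes the build was mm10 and the tools included MACS 1.4.2, TopHat2 2.0.13 and CASAVA 2.18, with no role stated. The counting tool, strand setting and handling of reads with several matches are not stated in these sources, so genes with near-identical copies (Cstdc3 is one) are uncertain. Distances and closest genes are those of the lists.

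Genes that reached 1 RPKM in 2 or more of 8 libraries were kept, and their counts were tested with edgeR 4.0.16 (TMM, quasi-likelihood test), 1 fit per experiment, with Benjamini-Hochberg adjustment over 10873 or 10601 genes and a threshold of 0.05. Tests are unpaired, since no label says that a replicate number marks a shared animal or day. Replicates differed by more than sampling noise. The code was tested on simulated counts. DESeq2 1.42.0 and limma 3.58.1 served as alternatives, with R 4.3.3 and Python 3.11.15. The sites, gene lists and genes to name were chosen with earlier results of these data known. The named genes are 14 fixed ones, the 10 with the most sites, the 8 largest rises and 8 largest falls per comparison whose higher group averaged 5 RPKM or more, up to 6 per direction called in both late comparisons, and up to 3 per gene list. Some of these are not reported here. Of 9170 genes of the Bcl11b list, 99.5% lie within 5 kb of their RefSeq GRCm38.p6 interval.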

Additional observations from a re-analysis of the deposited data

Results flagged for a closer look

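Genes closest to shared distal sites are given here where the KO effect differed between the late and the early stage by a test of the difference itself (edgeR quasi-likelihood test of the interaction, Benjamini-Hochberg adjustment over all genes). Values are the late minus the early KO effect on the log2 scale. They were tested over the genes of the fixed list and the genes with the most sites. In the Gata3 experiment 9 of the 17 such genes passed, against 12.2% of all genes tested. The effect was more negative early than late for all 9: Il4 by 5.564, Il1rl1 by 2.791, Il10 by 2.027, Il13 by 1.824, Maf by 1.973, Rbpj by 1.802, Gata3 by 1.135 and Prdm1 by 0.6757, and the unnamed gene Gm20098 by 4.003. Ifng differed by -4.06 without passing (adjusted p = 0.0822), and Il5 by -0.57 (adjusted p = 0.635). Among other genes named in the report, some passed the other way, such as Fasl with -4.58, Tnfsf4 with -3.25 and Havcr2 with -2.00.

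In the Bcl11b experiment 3 of the 16 such genes passed, against 3.24% of all genes tested: Il13 with -3.742, Il10 with -1.172 and Gzmb with -1.397. Il13 and Il10 rose early and did not pass late, and Gzmb fell late and did not pass early. Other genes named in the report passed in both directions: Phlda1 with -4.09, Tnfsf4 with -3.94 and Rgs1 with -1.35, and Slc2a3 with 4.29, Cyp2s1 with 3.78, Sytl2 with 1.93 and Ctla4 with 1.32. These rest on the early WT libraries that stand apart from the others. The number that passed was 1 when either late WT library or either late KO library was left out, 2 without either early KO library, 3 without early WT replicate 1 and 5 without early WT replicate 2.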

How the results depend on the processing

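The number of shared distal sites stayed within 1.5 times of 5492: 5306 with an overlap of at least 0.5 of the shorter peak, 4350 at an FDR of at most 1%, 4666 beyond 5000 bp and 6033 with input peaks kept. For late Bcl11b KO (65 higher, 14 lower) the counts moved to 40 higher without a filter on low values, to 140 and 48 with DESeq2, to 19 and 6 with limma on log2(RPKM + 0.1), to 305 and 128 in a fit of only the 4 libraries, and to 128 and 27 without both early WT libraries, a fit added after the data were seen. For early Bcl11b KO (343 and 223) they moved to 1356 and 61 with limma at a pseudocount of 1, to 1367 and 66 at 0.1, and to 160 and 136 with only the 4 libraries. With only the 4 libraries of each comparison, more genes were thus called higher late (305) than early (160), the reverse of the main fit. With limma at 1 and 0.1 the early Bcl11b KO change also reversed for Bcl11b (0.047 and 0.060), Ifngr1 (0.10 and 0.12) and Runx3 (0.33 and 0.35), where the median of all genes stood at 0.862 and 1.139. The cause was not tested. Counts for both Gata3 comparisons stayed within 1.5 times under these alternatives. With each library left out in turn, the numbers higher and lower ranged over 4 to 9 and 2 to 4 (late Bcl11b), 228 to 356 and 205 to 277 (early Bcl11b), 164 to 253 and 170 to 239 (late Gata3), and 276 to 316 and 429 to 494 (early Gata3), and the stage differences over 1 to 5 (Bcl11b experiment) and 8 to 9 (Gata3 experiment). Using the first listed gene only, or sites within 50 kb only, changed no count by over 1.5 times. The former and all alternatives of the stage differences were chosen after the data were seen. With a replicate block the counts were 48 and 11, 312 and 214, 429 and 390, and 483 and 674 in the same order, and 3 and 12 stage differences. Samples of the same number deviated together with correlations of 0.28, -0.02, 0.32 and 0.14 in that order, over only 2 numbers. The labels give no pairing and 2 numbers cannot settle it, so the fit without a block was kept. The planned search for GATA words in whole peaks was not run, since it needs a genome. Reads limit what a peak list can show: the lowest shared sites have 11 Bcl11b and 8 GATA3 reads.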
